A study of Mus musculus with 4 samples.

Results

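The TNF receptor superfamily was followed here through 10 of its genes: Ltbr, Tnfrsf1a, Tnfrsf1b, Tnfrsf10b, Tnfrsf11b, Tnfrsf12a, Tnfrsf19, Tnfrsf21, Fas and Ngfr. They were found by symbol among the 53465 genes of the count table, and all 10 had a row. Ltbr was chosen by its scaled counts, which differed between these same libraries, and the other 9 were selected as receptors of its family with that difference known. The levels of the 10 receptors are therefore given as a description with no p-value, and nothing rests on their number or direction. The libraries held the mRNA still present in polysomes after a ribosome run-off assay (PS-RRA-mRNA-Seq), in which harringtonine (2 µg/ml, 2 min) blocked new initiation and cycloheximide then stopped the remaining ribosomes. Control cells (STHdhQ7/Q7) and HD-homo cells (STHdhQ111/Q111) gave 2 libraries each. Both are immortalized striatal cell lines from C57/BL6 mice whose knock-in Htt exon 1 encodes 7 or 111 glutamine repeats on both alleles, and both were cultured and treated alike. Each group was a single line, and what the repeat does cannot be told apart from whatever else separates these lines. The comparison asked which mRNAs were more or less abundant in polysomes of HD-homo cells that persisted through the run-off.

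TNF receptors are membrane proteins with cysteine-rich repeats outside the cell that bind trimeric ligands of the TNF family. Some carry a death domain inside the cell and recruit Tradd, Fadd and Ripk1, while others bind TRAF adaptors directly. Both routes can activate NF-kB, and the death domain route can also lead to caspase activation or, through Ripk3 and Mlkl, to necroptosis. Soluble decoys and cleavage at the cell surface limit the amount of ligand that reaches the receptors. In the brain, TNF receptors are known mainly for their part in glial inflammation, synaptic scaling, myelin and the response to injury.

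Total counts were 12372090 to 15472808 per library, and 12961 of the 53465 genes had enough counts to be tested by edgeR's quasi-likelihood test. At an adjusted p under 0.05, 10.4% of the tested genes were called higher in HD-homo and 10.9% lower. Replicates of a group differed by more than sampling noise, with a chi-square per degree of freedom of 29.0 for control and 30.5 for HD-homo. Of the markers of striatal projection neurons, the dopamine receptor genes Drd1 and Drd2 had 0 counts in all 4 libraries. The summed level of the 10 striatal markers was 5.78 to 7.78 in control and 4.12 to 8.47 in HD-homo, in CPM (a gene's share of the library's counts, after TMM scaling of the library totals). Of the 10, 4 were tested by edgeR: Ppp1r1b was higher in HD-homo, Adora2a and Pde10a were lower, and Penk was not called.

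The promoters of 4 receptors are shown because they belong to the pair of neighbouring receptor genes on chromosome 6 (Ltbr and Tnfrsf1a) and to receptors that stood higher in HD-homo by a large (Tnfrsf1b) and a smaller (Fas) factor. Each is a RefSeq window on GRCm38.p6 from 250 bases before to 50 bases after the annotated start, read 5′ to 3′ on the gene's strand. They lie at chr6:125313836-125314135 on the minus strand (Ltbr), chr6:125349473-125349772 on the plus strand (Tnfrsf1a), chr4:145246821-145247120 on the minus strand (Tnfrsf1b) and chr19:34290409-34290708 on the plus strand (Fas). Capitals mark the GC box (GGGCGG, on either strand) and the AP-1 motif (TGANTCA, which reads alike on both strands).
Ltbr: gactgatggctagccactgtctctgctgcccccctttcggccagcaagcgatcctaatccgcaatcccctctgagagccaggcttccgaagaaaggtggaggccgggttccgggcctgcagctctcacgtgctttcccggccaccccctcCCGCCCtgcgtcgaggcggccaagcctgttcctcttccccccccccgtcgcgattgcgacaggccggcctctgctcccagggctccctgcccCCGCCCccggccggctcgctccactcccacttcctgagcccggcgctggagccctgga
Tnfrsf1a: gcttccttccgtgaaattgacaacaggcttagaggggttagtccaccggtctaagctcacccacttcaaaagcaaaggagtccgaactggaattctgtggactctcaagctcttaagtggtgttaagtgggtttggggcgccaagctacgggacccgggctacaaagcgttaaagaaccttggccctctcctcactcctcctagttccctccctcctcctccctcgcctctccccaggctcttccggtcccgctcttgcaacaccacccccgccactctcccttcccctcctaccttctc
Tnfrsf1b: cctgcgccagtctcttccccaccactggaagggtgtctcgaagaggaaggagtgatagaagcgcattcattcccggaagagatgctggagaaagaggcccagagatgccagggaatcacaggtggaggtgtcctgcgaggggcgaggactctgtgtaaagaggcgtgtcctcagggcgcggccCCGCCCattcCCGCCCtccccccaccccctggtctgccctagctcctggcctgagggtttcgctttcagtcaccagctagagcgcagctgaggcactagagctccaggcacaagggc
Fas: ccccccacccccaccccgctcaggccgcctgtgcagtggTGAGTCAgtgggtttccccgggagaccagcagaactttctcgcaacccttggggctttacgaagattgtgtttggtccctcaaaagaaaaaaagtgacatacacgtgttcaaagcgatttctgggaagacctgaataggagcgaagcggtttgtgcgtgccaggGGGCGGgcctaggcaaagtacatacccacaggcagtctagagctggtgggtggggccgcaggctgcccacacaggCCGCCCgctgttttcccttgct

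RefSeq windows were found for 8 of the 10 receptors, as 9 entries because Tnfrsf19 has a pair of annotated starts. The Ltbr window held GC boxes at positions -100 to -95 and -8 to -3 from the start, both on the opposite strand, and was 70.0% G and C. The Tnfrsf1a window, from a gene only 35.5 kb away, held neither motif and was 57% G and C. It begins at 125349473, inside the gene as located here by GENCODE, whose start is 125349362. The bases before that GENCODE start were thus not searched, and the window is not a like comparison with that of Ltbr. A GC box was present in 7 of the 9 entries and in 35.7% of all 32851 promoter windows of this length. The AP-1 motif was present only in Fas among the 9 entries, at positions -211 to -205, and in 7.81% of all windows. It overlapped no GC box there. Neither the kappaB consensus (4.51% of all windows), nor TATAAA (13.6%), nor CCAAT (37.4%) had an exact match in the 9 entries. These are matches of letters within 300 bases and say nothing about binding.

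Among the 10 receptors, Ltbr showed the widest gap between the lines and Tnfrsf12a carried most of the mRNA in both. Tnfrsf1b, Tnfrsf19, Tnfrsf11b, Fas and Tnfrsf1a also stood higher in HD-homo polysomes, by 1.80-fold to 15.4-fold. Tnfrsf10b stood higher and Tnfrsf12a and Tnfrsf21 lower by less than 2-fold, and Ngfr was close to 0 counts in every library. Of the 10 genes, 9 had enough counts to be tested, and edgeR called 6 higher and 0 lower. The background was 10.4% of tested genes called higher and 10.9% called lower. The libraries of HD-homo lay above both control libraries for 7 of the 9 and below for 2, where 28.6% of all tested genes lay above and 28.5% below without overlap. The median log2 fold change was 1.25 over the 9 and 0.0017 over all tested genes. Since the contrast itself brought these genes forward, the counts describe them and are not evidence about the family. Calls of single receptors, here and below, are likewise a description and not a test of those receptors. In these bulk libraries fewer cells of a type and less RNA per cell cannot be told apart.

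**Figure D1:**
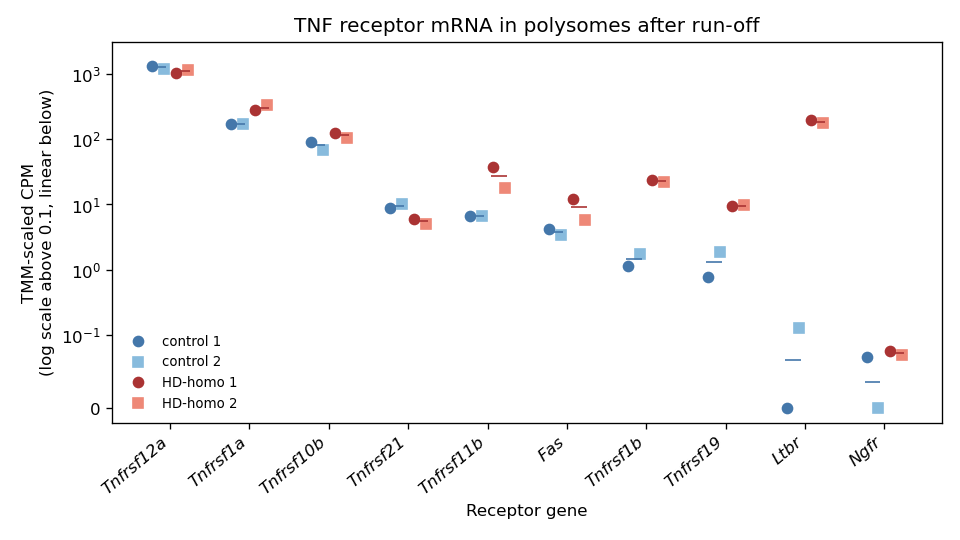
Level of each of the 10 receptors in the 4 libraries, as TMM-scaled CPM on a scale that is logarithmic above 0.1 and linear below; circles are replicate 1, squares replicate 2, and horizontal lines the group means (n = 2). Ltbr moved from 0 and 0.131 CPM (control) to 195.2 and 174.1 CPM (HD-homo), while Tnfrsf12a stayed between 1037 and 1321 CPM in all 4 libraries.

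Ltbr encodes the lymphotoxin beta receptor, which binds the lymphotoxin heterotrimer and the ligand Tnfsf14 and signals through TRAF proteins to the alternative NF-kB arm. The gene (ENSMUSG00000030339) lies at chr6:125306571-125313885 on the minus strand of GRCm38. It had 0 and 2 counts in the control libraries and 2509 and 2384 counts in the HD-homo libraries. Ltbr mRNA was thus at the edge of detection in control polysomes and abundant in both HD-homo libraries. Scaled, the mean was 0.0657 ± 0.0929 CPM (SD, n = 2) in control and 184.7 ± 14.9 CPM (SD, n = 2) in HD-homo. The ratio of the groups was 2706, with an exact 95% counting interval of 749 to 22353 that covers counting error only. Both control counts came from replicate 2, so the size of the ratio rested on that library. Without it the HD-homo level was at least 869-fold higher, taking a floor of 3 counts for the remaining control library. Without control replicate 1 the ratio was 1403 (388 to 11592), and without either HD-homo library it was 2556 or 2866. The 2 HD-homo libraries differed from each other by 1.12-fold.

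Tnfrsf1b encodes the TNF receptor without a death domain, which binds TRAF adaptors and responds best to membrane-bound TNF. It lies at chr4:145213463-145246870 on the minus strand and had 16 and 27 counts in control and 300 and 298 counts in HD-homo. The mean level was 1.45 ± 0.453 CPM for control and 22.6 ± 1.12 CPM for HD-homo (SD, n = 2). The lower HD-homo library was 12.3-fold above the higher control library, so the groups were far apart relative to the spread within them. The fitted log2 fold change was 3.94 (standard error 0.32), a 15.4-fold difference, and it stayed between 3.66 and 4.30 under every alternative setting run.

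Tnfrsf12a encodes the receptor for the ligand TWEAK (Tnfsf12), a short receptor that binds TRAF proteins and is induced by growth factors and injury. It lies at chr17:23675445-23677468 on the minus strand and had 18671 and 18063 counts in control and 13333 and 15701 in HD-homo. The libraries did not overlap, but the groups lay close together, with means of 1253 ± 95.1 CPM for control and 1092 ± 77.3 CPM for HD-homo (SD, n = 2). The log2 fold change was -0.20 (standard error 0.21), smaller than its error, and was not called. It ranged from -0.28 to -0.11 over the alternatives.

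Tnfrsf19 encodes an orphan-like receptor that binds TRAF proteins and can stand in for Ngfr beside Lingo1 and the Nogo receptor on axons. It lies at chr14:60963875-61046490 on the minus strand and had 11 and 29 counts in control and 122 and 133 in HD-homo. The control libraries differed from each other by 2.45-fold and the HD-homo libraries by 1.02-fold. The means were 1.34 ± 0.796 CPM and 9.60 ± 0.156 CPM (SD, n = 2), and the log2 fold change was 2.82 (standard error 0.38), or 7.06-fold. It was 2.33 without control replicate 1 and 3.61 without control replicate 2. A non-coding gene, Gm41168, overlaps it on the opposite strand and had 0 counts in all libraries.

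Tnfrsf1a encodes the main, broadly expressed TNF receptor, whose death domain recruits Tradd and Ripk1. It lies at chr6:125349362-125362484 on the plus strand and had 2377 and 2566 counts in control and 3609 and 4464 in HD-homo. The control libraries were nearly equal, at 168.1 and 168.5 CPM, and both HD-homo libraries were above them, at 280.8 and 326.0 CPM. The log2 fold change was 0.85 (standard error 0.20), or 1.80-fold, and the lower HD-homo library was 1.67-fold above the higher control library. The value ranged from 0.74 to 0.97 over the alternatives, but edgeR's call was lost when either control library was left out.

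Fas encodes the death receptor for Fas ligand, which recruits Fadd and Casp8. It lies at chr19:34290666-34327772 on the plus strand and had 59 and 52 counts in control and 158 and 80 in HD-homo. The 2 HD-homo libraries differed from each other by 2.10-fold, at 12.3 and 5.84 CPM, against 4.17 and 3.41 CPM in control. The lower HD-homo library was only 1.40-fold above the higher control library. The log2 fold change was 1.25 (standard error 0.36), or 2.38-fold, and the call rested on HD-homo replicate 1. Without that library the log2 fold change was 0.64 and the call was lost.

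Tnfrsf10b encodes the mouse death receptor for TRAIL (Tnfsf10). It lies at chr14:69767472-69784411 on the plus strand and had 1279 and 1054 counts in control and 1596 and 1436 in HD-homo. Scaled, these were 90.5 and 69.2 CPM against 124.2 and 104.9 CPM. The groups did not overlap, but the lower HD-homo library was only 1.16-fold above the higher control library. The log2 fold change of 0.52 (standard error 0.22) was not called.

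Tnfrsf21 encodes a death domain receptor of neurons, lymphocytes and endothelium that has been linked to axon pruning. It lies at chr17:43016555-43089189 on the plus strand and had 123 and 154 counts in control and 77 and 69 in HD-homo. Both control libraries were above both HD-homo libraries, at 9.41 ± 0.999 CPM and 5.52 ± 0.673 CPM (SD, n = 2). The log2 fold change was -0.77 (standard error 0.28), a 1.71-fold lower level in HD-homo that was not called. It was negative under every alternative, from -0.88 to -0.65.

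Ngfr encodes the low-affinity neurotrophin receptor, a death domain receptor for neurotrophins and their precursors. It lies at chr11:95568818-95587735 on the minus strand and had 1 and 0 counts in control and 1 and 1 in HD-homo. This was too few to test, and no fold change is given. A count of 0 in a single library allows a level of up to 0.197 to 0.233 CPM at these depths, taking a floor of 3 counts.

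Tnfrsf11b encodes osteoprotegerin, a secreted decoy that binds Tnfsf11 and TRAIL and has no membrane anchor. It lies at chr15:54250619-54278484 on the minus strand and had 94 and 103 counts in control and 474 and 248 in HD-homo. The control libraries agreed within 1.02-fold, while the HD-homo libraries differed by 2.04-fold, at 36.9 and 18.1 CPM. The lower HD-homo library was still 2.68-fold above the higher control library. The log2 fold change was 2.03 (standard error 0.33), or 4.09-fold, and ranged from 1.45 to 2.46 over the alternatives. The difference between the HD-homo libraries had the same direction for Fas and Tnfrsf11b, with replicate 1 the higher, and the opposite one for Tnfrsf1a.

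Levels were compared between the genes per kilobase of annotated exon (CPM per kb), since a longer mRNA gives more counts. The length was the union of all annotated exons of a gene. It can exceed the length of the mRNA present, so the order and shares of the genes are approximate. Tnfrsf12a had the highest level per length in both lines, at 614.0 to 683.6 CPM per kb in control and 536.9 to 593.5 CPM per kb in HD-homo. Tnfrsf1a was next in both lines, at 64.9 to 65.0 CPM per kb in control and 108.4 to 125.8 CPM per kb in HD-homo. Ltbr changed its place from near the bottom to the third, at 74.0 to 82.9 CPM per kb in HD-homo, above Tnfrsf10b at 19.2 to 22.8 CPM per kb. In control, Tnfrsf10b was followed by Tnfrsf11b and Tnfrsf21, whose libraries overlapped, then by Fas. Tnfrsf1b and Tnfrsf19 overlapped below Fas, and Ltbr and Ngfr overlapped at the bottom. In HD-homo, Tnfrsf11b, Tnfrsf1b, Fas, Tnfrsf19, Tnfrsf21 and Ngfr followed in this order, and only Tnfrsf1b and Fas overlapped.

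Summed per length, the 10 receptors came to 772 and 699 CPM per kb in the control libraries and to 780 and 831 CPM per kb in the HD-homo libraries. The composition of the sum differed more than its size. Tnfrsf12a made up 88.5% and 87.8% of it in control and 68.9% and 71.4% in HD-homo. Ltbr made up 0 and 0.00798% in control and 10.6% and 8.90% in HD-homo, and Tnfrsf1a 8.41% and 9.30% against 13.9% and 15.1%. As a share of the raw counts of the 10 genes, Ltbr took 0 of 22631 in control replicate 1, with an exact (Clopper-Pearson) 95% upper limit of 0.0163%. It took 0.00907% (0.00110 to 0.0328) in control replicate 2, 11.3% (10.9 to 11.7) in HD-homo replicate 1 and 9.61% (9.24 to 9.98) in HD-homo replicate 2. These intervals also cover counting error only.

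**Figure D2:**
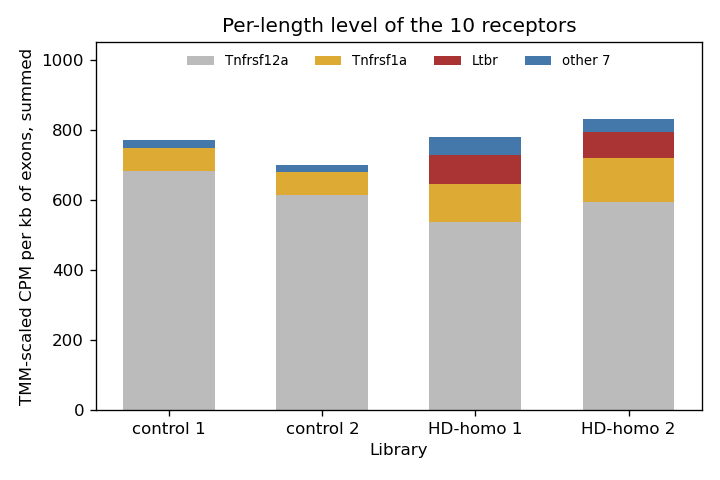
Summed level of the 10 receptors per library, in TMM-scaled CPM per kb of exon, stacked by Tnfrsf12a, Tnfrsf1a, Ltbr and the other 7 genes. The bars reach 772 and 699 CPM per kb in control and 780 and 831 CPM per kb in HD-homo, and a visible Ltbr segment is present only in the HD-homo bars.

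Marker genes of other cell types differed between the same libraries. Over all tested genes, 10.4% were called higher and 10.9% lower. The summed level of 6 fibroblast and mesenchymal markers ran from 766 to 1546 CPM over the control libraries and from 4846 to 4944 CPM over the HD-homo libraries. Most of this sum was Col1a1, at 687 and 1439 CPM in control and 3702 and 3601 CPM in HD-homo. Of the 5 tested, 4 were higher (Col1a1, Col1a2, Pdgfra and Dcn), and Pdgfrb was not called (log2 fold change 0.0059). The summed level of 7 neural progenitor and astrocyte markers ran from 189 to 256 CPM in control and from 11.5 to 13.5 CPM in HD-homo. Of the 4 tested, 3 were lower. These were Nes, Sox2 and Pax6. Slc1a3 went the other way, with 43 and 41 counts in control and 85 and 59 in HD-homo, and was not called. Gfap, Aqp4 and Aldh1l1 had too few counts to test. The summed level of 8 pan-neuronal markers was 101 and 131 CPM against 54.3 and 66.9 CPM. Of these, Rbfox3, Snap25 and Syt1 had 0 counts in all libraries, and of the 3 tested only Stmn2 was called, with 903 and 933 against 135 and 78 counts. Of 8 microglia and leukocyte markers, 6 had 0 counts in all libraries, among them Aif1, Cx3cr1, Itgam and Tyrobp, and the sum stayed between 0.424 and 1.79 CPM. Only Csf1r was tested among them, and it was higher. The 5 endothelial markers summed to 0.545 to 0.949 CPM and none was tested. The part of these marker lists in the receptor differences was not tested.

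The 5 tested genes whose log2 CPM over the 4 libraries lay closest to that of Ltbr, by Euclidean distance, were Thbd, Hic1, Slc43a3, Mpg and Ppbp. Likeness here rests on 4 libraries that share their depth and line with Ltbr, and it mostly says that a gene was near 0 in control and abundant in HD-homo. Thbd, which encodes the anticoagulant receptor thrombomodulin, was the nearest at a distance of 0.64, with 0 and 2 counts in control and 2168 and 3635 in HD-homo. Hic1, a transcriptional repressor gene, followed at 1.64, with 1 and 4 counts in control and 1023 and 1564 in HD-homo. The transporter gene Slc43a3 (distance 1.68) had 1 and 1 counts in control and 1205 and 1109 in HD-homo. The DNA glycosylase gene Mpg (1.79) had 1 and 1 against 952 and 1300 counts. The chemokine gene Ppbp (2.06) had 5 and 2 against 1603 and 1395 counts. None of the 5 is a TNF receptor.

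Tnfrsf1a aside, Scnn1a was the single gene around Ltbr that was called higher, a sodium channel subunit gene that is the only annotated gene between these receptor genes. The window of 200 kb on either side held 25 annotated genes, of which 12 besides Tnfrsf1a were tested. Of these, 1 was higher, 1 was lower and 10 were not called by edgeR, where 10.4% of all tested genes were called higher and 10.9% lower, and their median log2 fold change was -0.08. Scnn1a (chr6:125320659-125344943, plus strand) had 0 and 0 counts in control and 19 and 19 in HD-homo. This was at least 14.0-fold higher with a floor of 3 counts over the control group (edgeR adjusted p = 2.31e-04). The filter kept Scnn1a only through HD-homo, so it could only be called higher and the p-value is no evidence for that direction. The bound fell to 7.27-fold without control replicate 1 and to 6.75-fold without control replicate 2. Its level was low in both lines, with a mean of 1.43 CPM in HD-homo against 184.7 CPM for Ltbr. Cd9, a tetraspanin gene, averaged 514.7 ± 59.7 CPM in the control libraries and 328.4 ± 15.4 CPM in the HD-homo libraries, with a log2 fold change of -0.65 (standard error 0.21, edgeR adjusted p = 0.0398). That call was lost when either control library or HD-homo replicate 1 was left out. Gapdh, which lies in the same window, had a log2 fold change of -0.36 (edgeR adjusted p = 0.318).

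**Figure D3:**
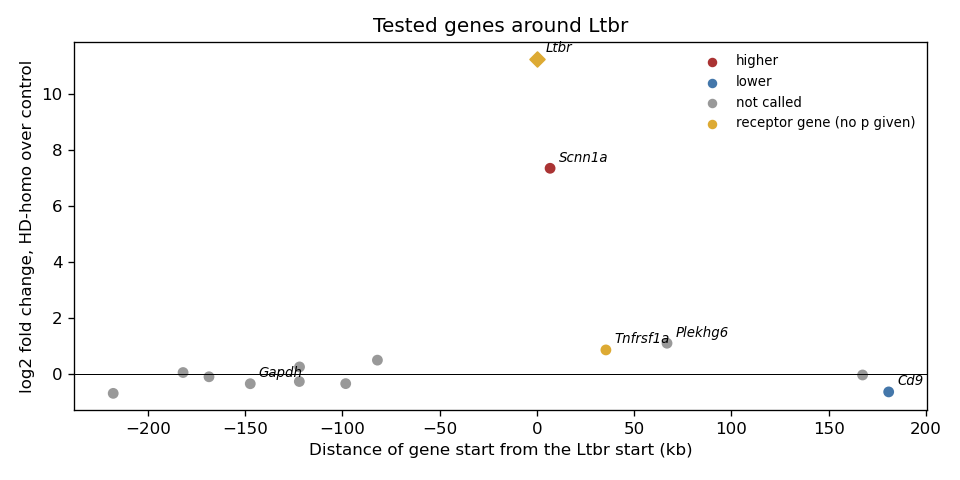
Fitted log2 fold change (HD-homo over control) of the tested genes within 200 kb of Ltbr against the distance of each gene's start from that of Ltbr along the chromosome, in kb. Red and blue points were called higher (Scnn1a) and lower (Cd9), grey points were not called, and yellow marks the receptor genes, for which no p-value is given; the fitted value of Scnn1a rests on 0 control counts and is no bound.

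Genes that act with the receptors were followed in 9 lists by role, 106 genes in all. Of these, 73 were tested, 17 were higher, 9 were lower, 47 were not called and 17 had 0 counts in every library, beside 10.4% higher and 10.9% lower over all tested genes. The lists are described below the receptors in the order from ligand to target. Median log2 fold changes of the lists are read beside 0.0017 for all tested genes, and no test of a list as a whole was made. Setting genes with 0 control counts at their lower bound left the lists' medians where they were.

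The ligands of Ltbr were at or near 0 in both lines. Tnfsf14 had 0 counts in all libraries, while the lymphotoxin genes Lta and Ltb had 1 count each, in HD-homo replicate 2 and control replicate 1. Tnf, Fasl and Tnfsf10, the ligands of Tnfrsf1a and Tnfrsf1b, of Fas and of Tnfrsf10b, also had 0 counts in all 4 libraries. A total of 0 over the 4 libraries allows a level of up to 0.0537 CPM. Receptor mRNA was thus present in polysome libraries that held 0 or 1 counts in total for each of these ligands. Ligand mRNA outside these polysomes was not analysed here.

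Of 18 TNF family ligands, 5 were tested, 4 were higher and 1 was lower, with a median log2 fold change of 1.78. Eda, a ligand of ectodermal development, had 4 and 0 counts in control and 183 and 147 in HD-homo (log2 fold change 6.42, standard error 0.57, edgeR adjusted p = 2.23e-06). Its log2 fold change was 10.44 without control replicate 1, which held the 4 control counts, and 5.42 without control replicate 2. Tnfsf11, the ligand that the decoy Tnfrsf11b binds, had 0 and 0 against 12 and 12 counts and was at least 8.85-fold higher (edgeR adjusted p = 0.00103). That bound fell to 4.59-fold and 4.26-fold without control replicate 1 and 2, and the gene was too low to test without either HD-homo library. Tnfsf12, the ligand of Tnfrsf12a, had 54 and 33 counts in control and 93 and 99 in HD-homo (log2 fold change 1.28, standard error 0.33, edgeR adjusted p = 0.0128). Its call was lost without control replicate 2. Tnfsf18 had a log2 fold change of 1.78 (edgeR adjusted p = 0.0310), lost without control replicate 1 or HD-homo replicate 1 and in DESeq2, and its log2 fold change was 3.10 without control replicate 2. The only lower ligand, Tnfsf9, had a log2 fold change of -0.95 (edgeR adjusted p = 0.0314), lost without control replicate 1 or either HD-homo library and in DESeq2.

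Of 18 other receptors of the superfamily, 8 were tested, 3 were higher and 1 was lower, with a median log2 fold change of -0.06. Tnfrsf11a, the membrane receptor for Tnfsf11, had 11 and 14 counts in control and 97 and 76 in HD-homo (log2 fold change 2.93, standard error 0.37, edgeR adjusted p = 5.97e-05). Tnfrsf9, a costimulatory receptor of T cells, had 3 and 2 against 40 and 49 counts (log2 fold change 4.23, edgeR adjusted p = 4.09e-05). Tnfrsf4, another costimulatory receptor, had 3 and 7 against 44 and 184 counts (log2 fold change 4.60, edgeR adjusted p = 1.99e-04). Its log2 fold change was 3.30 when HD-homo replicate 2 was left out and 5.29 when replicate 1 was. None of these 3 exceeded 13.4 CPM in any library. Relt was lower, at 637 and 688 counts in control and 282 and 258 in HD-homo (log2 fold change -1.15, standard error 0.23, edgeR adjusted p = 0.00203). The near-copies Tnfrsf22, Tnfrsf23 and Tnfrsf26 share sequence and their counts are uncertain.

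Of 14 ligands and partners of Ngfr, 10 were tested, 2 were higher and 3 were lower, with a median log2 fold change of 0.01. Ntrk3, a neurotrophin receptor kinase, had 0 and 0 against 36 and 27 counts and was at least 23.2-fold higher (edgeR adjusted p = 5.99e-05). Without control replicate 2 the bound was 11.2-fold, the lowest when 1 library was left out. Sort1, the co-receptor that binds neurotrophin precursors, was lower, with 284 and 190 against 39 and 18 counts (log2 fold change -2.91, standard error 0.39, edgeR adjusted p = 8.49e-05), and the log2 fold change was -3.60 without HD-homo replicate 1. Bex3, which binds the receptor's tail, was lower (log2 fold change -1.24, standard error 0.21, edgeR adjusted p = 5.98e-04). Lingo1, the partner of Ngfr and of Tnfrsf19, was also lower (log2 fold change -1.19, standard error 0.27, edgeR adjusted p = 0.00517).

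Of 13 TRAF and inhibitor-of-apoptosis adaptors, all were tested, 3 were higher and 1 was lower, with a median log2 fold change of 0.14. Traf1, an adaptor that binds Tnfrsf1b, had 96 and 145 counts in control and 1096 and 1839 in HD-homo (log2 fold change 3.75, standard error 0.29, edgeR adjusted p = 7.41e-07). Birc3, an inhibitor of apoptosis and ubiquitin ligase recruited by Traf2, had 0 and 5 against 227 and 158 counts (log2 fold change 6.35, edgeR adjusted p = 2.66e-06). All 5 control counts were in replicate 2, and the log2 fold change was 5.44 without control replicate 1 and 10.63 without control replicate 2. Tank had 237 and 308 against 912 and 710 counts (log2 fold change 1.73, standard error 0.25, edgeR adjusted p = 1.46e-04). Traf7 was lower (log2 fold change -0.65, standard error 0.20, edgeR adjusted p = 0.0310), lost when any library was left out. Traf2, Traf3 and Birc2, which hold the alternative NF-kB arm in check below Ltbr, had log2 fold changes of 0.14, 0.10 and 0.07 and were not called. Birc3, listed in the same arm, was higher, as given above.

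Of 12 genes of the death domain complex, all were tested, 3 were higher and 1 was lower, with a median log2 fold change of 0.27. The higher genes included both effectors of necroptosis, Ripk3 and Mlkl, which the filter kept only through HD-homo. Ripk3 had 1 and 3 counts in control and 555 and 1002 in HD-homo (log2 fold change 8.65, standard error 0.48, edgeR adjusted p = 3.99e-08). With so few control counts, the log2 fold change was 8.15 without control replicate 1 and 9.51 without control replicate 2. Mlkl had 10 and 6 against 294 and 348 counts (log2 fold change 5.44, standard error 0.36, edgeR adjusted p = 1.65e-07). The adaptors that sit directly on Tnfrsf1a and Fas, Tradd, Fadd and Ripk1, had log2 fold changes of 0.36, 0.17 and 0.11, and the caspase Casp8 of 0.21. None of these 4 was called. Map3k5 was higher (log2 fold change 1.45, edgeR adjusted p = 0.0385), but lost without either control library or HD-homo replicate 1 and in DESeq2 and limma-voom. Daxx, which was lower, had a log2 fold change of -0.73 (edgeR adjusted p = 0.0226), lost when any library was left out.

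In the IKK and ubiquitin complex, which turns receptor signals into NF-kB activation, all 14 genes were tested and 0 were called by edgeR. An unadjusted p under 0.05 was reached by 2, both higher in HD-homo, and DESeq2 called 1, Tnfaip3, a feedback inhibitor of NF-kB. Its log2 fold change was 0.85 (standard error 0.30, edgeR adjusted p = 0.0601). The median log2 fold change of the 14 was 0.05. Of the 8 genes of the alternative NF-kB arm, 2 were higher and 6 were not called. Besides Birc3, which is also listed above, this was Relb, a subunit of the alternative NF-kB dimer, with 845 and 1207 counts in control and 1402 and 1882 in HD-homo. Its log2 fold change was 0.83 (standard error 0.22, edgeR adjusted p = 0.0165), lost without control replicate 1 or HD-homo replicate 2. Map3k14, the kinase of this arm, had a log2 fold change of 0.08 and was not called.

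Of 6 genes of receptor shedding, all were tested, 1 was higher and 1 was lower, with a median log2 fold change of -0.19. Rhbdf2, which carries the sheddase Adam17 to the cell surface, had 0 and 1 counts in control and 346 and 497 in HD-homo. The ratio of the groups was 933, with an exact 95% counting interval of 167 to 36876 (edgeR adjusted p = 4.78e-08). Without control replicate 2 it was at least 149.6-fold higher, and without control replicate 1 the ratio was 484. Adam17, which cleaves Tnfrsf1a and Tnfrsf1b from the membrane, was not called (log2 fold change -0.66, standard error 0.25, edgeR adjusted p = 0.0911). Furin, the protease that activates it, was lower, with 5316 and 5689 against 2234 and 3109 counts (log2 fold change -0.90, standard error 0.21, edgeR adjusted p = 0.00699).

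Of 9 genes known as targets of the lymphotoxin receptor in lymphoid stroma, only 2 were tested, 0 were higher and 1 was lower. Vcam1, an adhesion molecule for leukocytes, had 589 and 1026 counts in control and 80 and 52 in HD-homo (log2 fold change -3.45, standard error 0.33, edgeR adjusted p = 3.90e-06). The chemokine gene Cxcl12 had a log2 fold change of -0.71 and was not called (edgeR adjusted p = 0.165). Cxcl13, Ccl19, Ccl21a and Glycam1 had 0 counts in all libraries, and Icam1 had 1 and 1 against 7 and 3 counts. Most listed targets thus had little or no mRNA in either line, so the list cannot show whether Ltbr signals in HD-homo. Signalling by the receptor was not tested.

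**Figure D4:**
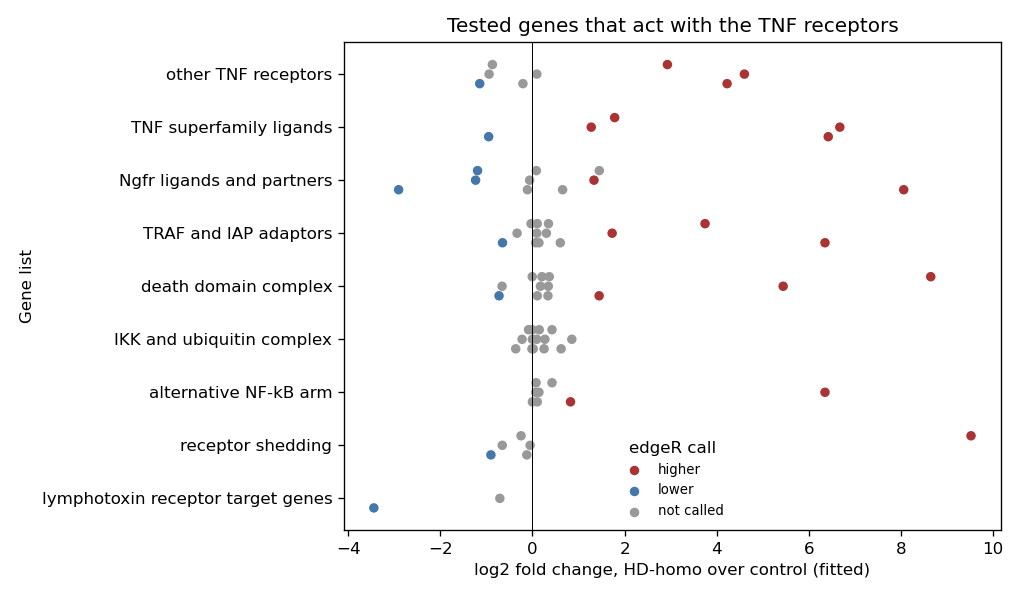
Fitted log2 fold change (HD-homo over control) of each tested gene in the 9 lists of genes that act with the receptors, with a gene of several lists shown in each. Red points were called higher, blue points lower and grey points not called by edgeR; of the 73 genes, 17 were higher and 9 lower, and the IKK and ubiquitin list holds grey points only (the fitted values of Tnfsf11 and Ntrk3 rest on 0 control counts and are no bounds).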

How the data were processed

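Polysome mRNA after run-off was sequenced in 2 control and 2 HD-homo directional poly(A) libraries. The authors trimmed reads with cutadapt, used Bowtie 1.1.2 to discard reads of rRNA and tRNA, and assigned the rest to genes with RSEM 1.3.0 on GRCm38.p5, as the submitters' processing notes and the methods give. How strand was handled in counting is not given in the sources used here. Deposited counts were integers, with 1 value for each gene in each library. A second deposited table held a signal, made by the authors by scaling counts with a size factor for every library (1.015, 1.096, 0.929 and 0.982), which was used for no test and gave back whole counts for 100% of values within 0.01.

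The counts were fitted with edgeR 4.0.16 (R 4.3.3) after TMM scaling and filterByExpr, and called at a Benjamini-Hochberg adjusted p under 0.05 over all tested genes. Standard errors were derived from the F statistic and can be too small where counts are few. The common dispersion was 0.0324. The study gives 2 independent experiments per group, so p-values measure the spread between these libraries. The log2 values used for likeness to Ltbr took a prior count of 2. Ratios for groups with 1 to 3 counts have exact intervals, and groups at 0 were given a floor of 3 counts over the group. Genes were located with a GENCODE annotation of GRCm38 by gene ID.

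The receptors and gene lists were chosen with earlier results of these data known. The genes named are the 10 receptors, up to 4 called genes of lowest p per list, the called neighbours of Ltbr and the 5 genes nearest to it in level. Other genes named were chosen after their values were seen, and some results are not reported here. The scripts were tested on simulated data. As alternatives, other scalings and filters, DESeq2 1.42.0, limma-voom (limma 3.58.1), a block for the replicate number, an adjusted p under 0.01 and the omission of each library in turn were tried.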

Additional observations from a re-analysis of the deposited data

How the results depend on the processing

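No receptor changed the sign of its log2 fold change under any alternative. Spread between replicates is a weak yardstick here, since it comes from the same 2 libraries of which 1 was left out. Other scalings could move values little, with a median log2 fold change of 0.0026 to 0.0203 over all tested genes. That 105 of 107 values moved by less than this spread is therefore no evidence of stability. The other 2 were Ltbr without control replicate 1 (10.36) and without control replicate 2 (14.29). Requiring at least 10 counts in every library, which removes genes near 0 in 1 line and with them Ltbr, left 815 genes higher and 883 lower, 7 listed pathway genes higher, and 0 neighbours of Ltbr higher and 0 lower. Of the neighbours, 2 were lower with no filter and 0 at an adjusted p under 0.01. Leaving out 1 library at a time gave 1168 to 1262 genes higher and 1200 to 1327 lower, 15 to 17 pathway genes higher and 7 to 9 lower, and 0 to 1 neighbours lower. Fas was not called in limma-voom or at an adjusted p under 0.01.

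With the replicate number as a block, 2126 genes were higher and 2350 lower, and 2 neighbours were lower. The block gave 7 receptors higher, with Tnfrsf10b added, and 1 lower, Tnfrsf21. Deviations of same-numbered libraries correlated at 0.39, but there are only 2 such pairs and the labels do not say that a number marks a shared day, so the libraries were not treated as paired.

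There were 2 libraries per group and 1 line per genotype, and genes near 0 counts in control have folds set by very few counts. Total RNA was not analysed here, so values were not divided by mRNA abundance.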
